A study of Mus musculus with 6 samples.

Results

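Among the small RNAs of mature mouse sperm, 8 microRNAs (miRNAs) that studies elsewhere tied to stress of the father were followed by name: mmu-miR-29c, mmu-miR-32, mmu-miR-193a, mmu-miR-204, mmu-miR-375, mmu-miR-532, mmu-miR-672 and mmu-miR-698, written below without the species prefix. They were chosen for those reports and not for their values here, although results of these data were already known when the set was drawn up. Every row of the miRNA table with one of these base names was taken, whichever arm of the precursor it came from, which gave 12 mature miRNAs among 778 rows. The table used here held no row for miR-698-5p, miR-698-3p, miR-193a-3p or miR-375-5p, so these 4 arms were not analysed here. Mature sperm had been taken from the cauda, the part of the epididymis where sperm are stored, of male C57BL/6 mice aged 8 weeks. The stress group held 3 samples from mice made depressed by stress, and the normal group held 3 samples from normal mice of the same strain and age. The labels used here do not give the stress itself, nor whether the 3 samples of a group are different animals, so that a p-value here speaks of the spread among these samples and that spread could be technical. In a bulk sample, fewer cells of a type and less RNA per cell cannot be told apart.

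A miRNA is cut from a hairpin precursor, and either arm of the hairpin, the 5p or the 3p strand, can be loaded into an Argonaute protein and guide it to messenger RNAs. Target choice rests largely on the seed, bases 2 to 8 from the 5′ end of the miRNA, so miRNAs with the same seed are counted as a family. Sperm carry miRNAs from the testis and take up more from the epididymal lining, and in mice such RNAs have been studied as carriers of a father's experience to the embryo. As background from mouse studies elsewhere, miR-29c, miR-32, miR-193-5p, miR-204, miR-375, miR-532-3p and miR-698 were reported as higher in sperm after chronic variable stress of the father, together with miR-30a and miR-30c. miR-375 and miR-672-5p were reported as higher in sperm of males exposed to early postnatal trauma.

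The sequences of the tested mature miRNAs are shown first, since their seeds and base content recur in the results. The seed is in capitals, and the sequences are those of the deposited table.
miR-672-5p: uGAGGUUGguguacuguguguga
miR-204-3p: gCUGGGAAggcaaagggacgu
miR-204-5p: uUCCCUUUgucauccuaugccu
miR-375-3p: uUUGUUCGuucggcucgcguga
miR-532-5p: cAUGCCUUgaguguaggaccgu
All 12 member sequences lay within their RefSeq hairpins (GRCm38.p6), and 10 were identical to the RefSeq mature entry of the same name. No seed was shared between any of the 12.

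miR-672-5p was the member that fell. It comes from a hairpin at chrX:104116175-104116274 (minus strand) in an intron of Nexmif, a gene for a neuronal protein of the X chromosome. Its level, in counts per 1000000 miRNA reads after TMM scaling (CPM), was 757, 744 and 591 in stress replicates 1 to 3, against 4016, 2979 and 1637 in normal replicates 1 to 3. All 3 stress samples lay below every normal sample, and the normal samples were spread widely, with replicate 1 highest. miR-672-5p averaged 697 ± 92.3 CPM in stress sperm and 2877 ± 1193 CPM in normal sperm (SD, n = 3 each), a 4.13-fold lower mean under stress. The log2 fold change was −2.04 ± 0.34 (SE; edgeR's quasi-likelihood test, adjusted p = 0.0044), the fourth smallest p of 236 tested miRNAs, and the adjusted p stayed between 0.00083 and 0.020 with any single sample left out. Without normal replicate 1 the log2 fold change was −1.75. With libraries scaled to their miRNA total it was −1.27 ± 0.31 (edgeR adjusted p = 0.011), and scaled to the total of the 3 deposited tables, the call was lost (−1.56 ± 0.63, edgeR adjusted p = 0.29).

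The values of miR-672-5p before any TMM scaling were lower as well. miR-672-5p had 1021, 1407 and 822 reads in the stress libraries, against 3360, 2265 and 4315 reads in the normal libraries. Raw reads follow library depth and cannot be compared directly, and the 4315 reads came from the deepest library. As a share of all miRNA reads it held 0.0976%, 0.0924% and 0.0814% in stress samples, against 0.310%, 0.204% and 0.141% in normal samples, again without overlap. On that scale 5.51% of all tested miRNAs were lower in stress without overlap, and miR-672-5p was the 1 tested member among them. Ranked by abundance within its own library, miR-672-5p was 44th, 44th and 47th in stress sperm, and 25th, 26th and 35th in normal sperm. A position in the order of a library's own miRNAs needs no scaling.

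miR-672-5p was the 1 member called among the 5 that had enough reads to be tested. Over all miRNAs tested, 12.7% were called in either direction and 10.2% were called lower, so 1 called member of 5 is close to the share among all miRNAs. The other 4 tested members also had negative log2 fold changes but did not pass. The median of the 5 was −0.57, against 0.00 over all 236 tested, of which 49.6% were negative.

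**Figure D1:**
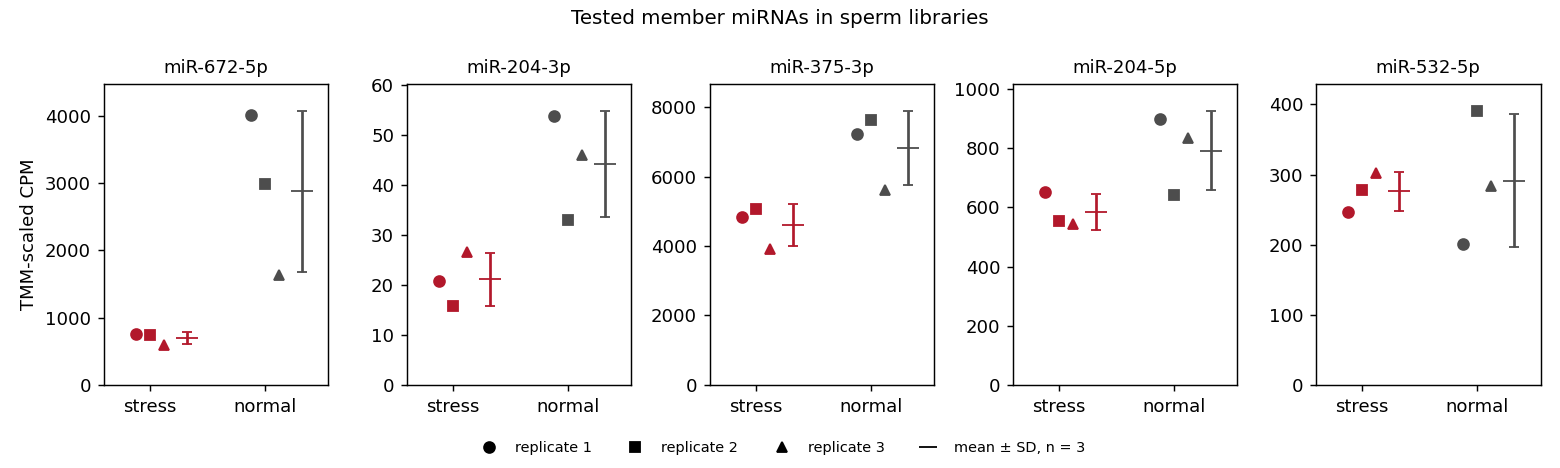
TMM-scaled CPM (linear axes from 0) of the 5 tested members in each of 3 stress and 3 normal sperm samples, with the mean ± SD beside the points. The stress samples of miR-672-5p lie between 591 and 757 CPM, all below the normal samples at 1637 to 4016 CPM, while the groups of miR-532-5p and miR-204-5p overlap.

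miR-375-3p was the most abundant member. miR-375 is known for its role in pancreatic islets, where it restrains insulin secretion, and its hairpin lies at chr1:74900658-74900721 (minus strand), outside any other annotated gene in GENCODE M21. It stood at 4842, 5068 and 3914 CPM in stress samples, against 7224, 7632 and 5624 CPM in normal samples. The groups did not overlap, but the normal replicate nearest to the stress samples was only slightly above them. The log2 fold change was −0.57 ± 0.23 (SE, edgeR adjusted p = 0.12), so miR-375-3p did not pass. As a share of the miRNA reads it was at 0.624%, 0.630% and 0.539% in stress samples, against 0.558%, 0.522% and 0.483% in normal samples, so there the groups overlapped and the stress mean was the higher one. Scaled to the miRNA total, miR-375-3p was at 0.20 ± 0.21 (edgeR adjusted p = 0.45). That scaling moved the median of all tested miRNAs from 0.00 to 0.76, and relative to the median miR-375-3p was at −0.57 with TMM and −0.56 with the miRNA total.

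The relation between miR-672-5p and miR-375-3p does not depend on scaling, since both are read from the same library. There were 0.156, 0.147 and 0.151 reads of miR-672-5p per read of miR-375-3p in stress samples, against 0.556, 0.390 and 0.291 in normal samples. The stress libraries nearly coincided, at 0.151 ± 0.0049 (SD, n = 3), while the normal libraries averaged 0.412 ± 0.134 (SD, n = 3) and did not overlap with them. This pair of members was set side by side after its values were seen, and no test was run on it. All members together held 0.806% ± 0.055 of the miRNA reads in stress samples and 0.829% ± 0.118 in normal samples (SD, n = 3 each), with overlap. Within that sum miR-375-3p made up 74.1% ± 1.62 in stress samples and 63.3% ± 4.46 in normal samples, and miR-672-5p 11.2% ± 0.33 in stress samples and 25.7% ± 6.51 in normal samples.

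miR-204 was detected on both arms. It is a miRNA of the eye, best known from the retinal pigment epithelium and the lens, and its hairpin lies in an intron of Trpm3, a cation channel gene, at chr19:22750605-22750672 (plus strand). The guide arm miR-204-5p stood at 653, 555 and 544 CPM in stress samples, against 900, 642 and 833 CPM in normal samples, with overlap between stress replicate 1 and normal replicate 2 (log2 fold change −0.44 ± 0.26, edgeR adjusted p = 0.26). The rarer miR-204-3p stood at 20.8, 15.9 and 26.6 CPM in stress samples, against 53.8, 32.9 and 45.9 CPM in normal samples. All 3 stress samples of miR-204-3p were below every normal sample, and it narrowly missed the threshold of 0.05 (−1.08 ± 0.34 on the log2 scale, edgeR adjusted p = 0.051). Over the alternatives run, its adjusted p lay between 0.063 and 0.78. Groups that do not overlap with the stress samples lower were seen for 20.8% of all tested miRNAs, and for 3 of the 5 tested members, miR-672-5p, miR-204-3p and miR-375-3p.

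The balance of the miR-204 arms is a ratio within the hairpin. The 3p arm took 3.08%, 2.78% and 4.67% of the reads of both arms in stress samples, against 5.64%, 4.88% and 5.22% in normal samples. The closest samples of the groups, stress replicate 3 (Wilson 95% interval 3.40% to 6.37%) and normal replicate 2 (3.33% to 7.11%), were not separable by counting error. The difference was −1.74 percentage points (n = 3 per group; exact two-sided permutation p = 0.1, below which groups of this size cannot go; adjusted p = 0.31 over 102 hairpins with reads on both arms). Of those 102 hairpins, 32.4% had 3p shares without overlap between the groups, so the miR-204 arms did not stand out. The 3p arm of miR-532 took 1.75% ± 0.80 in stress samples and 1.71% ± 0.97 in normal samples (SD, n = 3 each). For miR-672 it took 0.293%, 0.354% and 0.364% in stress samples, against 0%, 0.0441% and 0.139% in normal samples. These shares of miR-672 rest on 3 to 5 reads of the 3p arm in each stress library and 0 to 6 reads in each normal library, and 0 of 3360 reads in normal replicate 1 leaves a Wilson 95% upper limit of 0.114% (3 reads would be 0.0893%).

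miR-532-5p overlapped between the groups. Its hairpin lies at chrX:7248402-7248497 (minus strand) in an intron of Clcn5, a chloride transporter gene, in a row of miRNA hairpins. miR-532-5p stood at 246, 279 and 303 CPM in stress samples, against 201, 391 and 283 CPM in normal samples, which enclosed the stress values (−0.08 ± 0.30 on the log2 scale, edgeR adjusted p = 0.86). As a share of the miRNA reads it was higher in every stress sample, at 0.0317%, 0.0346% and 0.0417%, against 0.0155%, 0.0267% and 0.0243% in normal samples, as were the shares of many other miRNAs (56.8% of those tested were higher in stress without overlap on this scale). Its neighbour miR-501-3p, from a hairpin of the same Clcn5 intron row that starts 7159 bases away, gave a ratio that hardly moved. There were 1.39, 1.51 and 1.17 reads of miR-532-5p per read of miR-501-3p in stress samples, against 1.31, 1.41 and 1.45 in normal samples.

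**Figure D2:**
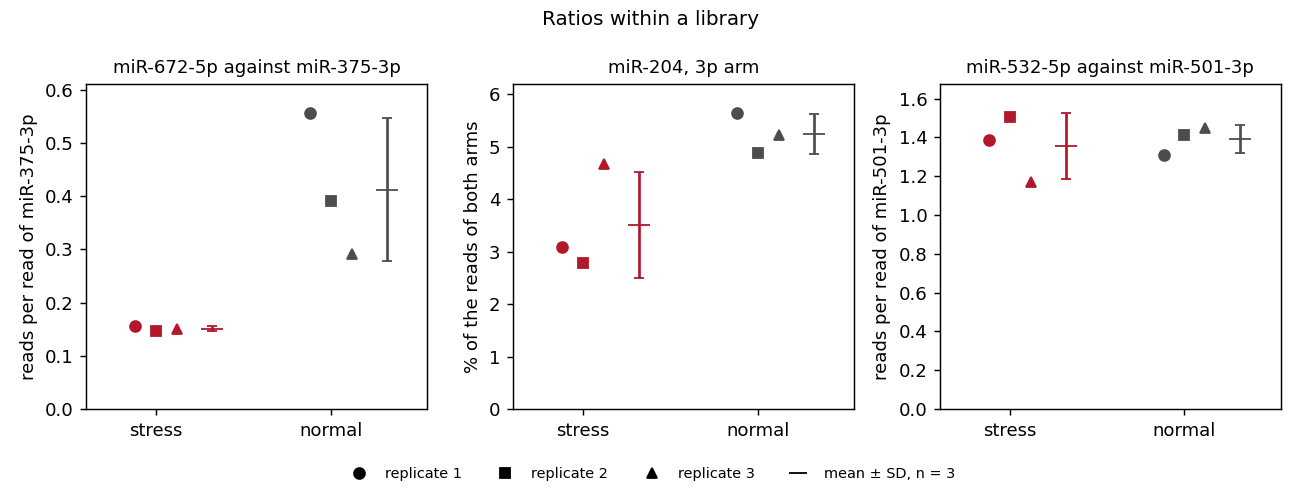
Ratios within each library, on linear axes from 0, for 3 stress and 3 normal samples with the mean ± SD beside the points: reads of miR-672-5p per read of miR-375-3p, the 3p share of the miR-204 reads, and reads of miR-532-5p per read of miR-501-3p. The first ratio lies at 0.147 to 0.156 in stress and 0.291 to 0.556 in normal samples, and the third overlaps between the groups.

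The other 7 members had few reads, and no test was possible for them after the filter on low counts. miR-32-5p was the best covered, with 5, 25 and 3 reads in stress libraries, against 3, 10 and 49 reads in normal libraries. It varied more within each group than between them. miR-532-3p had 6, 5 and 11 reads in stress libraries, against 1, 7 and 17 reads in normal libraries. miR-193a-5p, from a hairpin at chr11:79711969-79712034 (plus strand) outside other annotated genes, had 4, 3 and 0 reads in stress libraries, against 6, 1 and 8 reads in normal libraries. Both arms of miR-29c, a miRNA whose family represses collagens and other genes of the extracellular matrix, were rare. miR-29c-3p had 4, 11 and 6 reads in stress libraries and 1.5, 3 and 15 reads in normal libraries, the fraction being as deposited. miR-29c-5p had 3, 9 and 5 reads in stress libraries and 3, 1 and 6 reads in normal libraries.

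Summed over a group, these members had wide counting intervals. miR-32-5p was at 9.22 reads per 1000000 miRNA reads in stress libraries (exact Poisson 95% interval 6.35 to 12.95), against 11.8 in normal libraries (9.03 to 15.1). miR-193a-5p was at 1.96 per 1000000 in stress libraries (0.786 to 4.03), against 2.85 in normal libraries (1.595 to 4.70). For both, the intervals of the groups overlapped. miR-29c-3p was at 5.87 per 1000000 in stress libraries (3.63 to 8.97), against 3.71 in normal libraries (2.25 to 5.75), with the fraction kept in the sum. Such intervals cover counting error only and leave out the spread among the samples, whose reads were pooled. For miR-32-5p, 49 of the 62 reads in normal libraries came from normal replicate 3, the deepest library. Reads copied by PCR are not independent molecules, so the intervals can be too narrow even for counting error. With no filter on low counts, the log2 fold changes of the 7 lay between −1.28 ± 1.13 for miR-193a-5p and 1.43 ± 1.60 for miR-32-3p (SE), and their edgeR adjusted p-values between 0.52 and 0.98. No change of these members was detected.

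**Figure D3:**
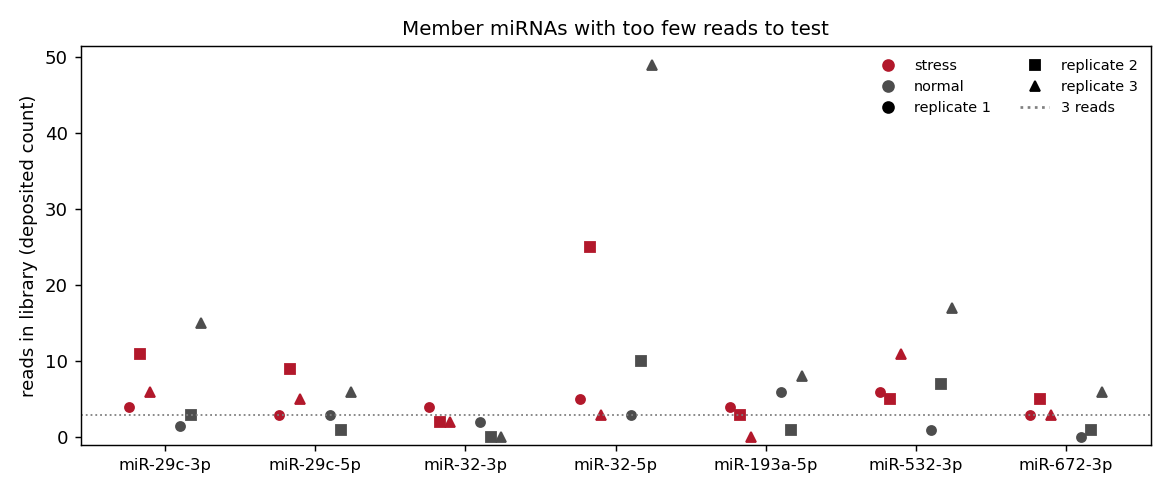
Deposited read counts per library (linear axis) of the 7 members with too few reads to test, stress left of normal for each, with a dotted line at 3 reads. Most points lie between 0 and 15 reads, and miR-32-5p reaches 25 reads in stress replicate 2 and 49 reads in normal replicate 3, the deepest library.

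Among the members with few reads, miR-29c-3p and miR-32-5p belong to seed families that other miRNAs filled in this table. The miR-29 family is shown with its seed in capitals, since its members differ only outside the seed.
miR-29c-3p: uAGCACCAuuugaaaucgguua
miR-29a-3p: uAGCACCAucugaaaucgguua
miR-29b-3p: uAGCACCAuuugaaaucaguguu
Counted from the 5′ end, miR-29a-3p differs from miR-29c-3p by the single substitution U10C, so reads can be hard to assign between them, and single values of this family are uncertain for that reason. miR-29c-3p took 0.972% ± 0.321 of the family's reads in stress samples and 1.03% ± 0.48 in normal samples, while miR-29a-3p took 93.0% ± 3.19 in stress samples and 90.8% ± 2.48 in normal samples (SD, n = 3 each). miR-29a-3p, at 0.29 ± 0.28 on the log2 scale, did not pass (edgeR adjusted p = 0.51).

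miR-32-5p, from an intron of Tmem245 at chr4:56895229-56895298 (minus strand), shares its seed AUUGCAC with miR-25-3p, miR-92a-3p, miR-92b-3p and miR-363-3p. It took 0.139%, 0.409% and 0.0722% of that family's reads in stress samples, against 0.156%, 0.320% and 0.531% in normal samples, with overlap. miR-25-3p and miR-92a-3p, from clusters known to promote cell growth, held nearly all the rest, and neither passed (−0.23 ± 0.28 and −0.07 ± 0.27 on the log2 scale, edgeR adjusted p = 0.60 and 0.86). In this table miR-204-5p shared its seed with miR-211-5p alone, a miRNA of pigment cells that differs from it by A17U, and miR-672-5p shared its seed with miR-377-5p, which had 0 to 3 reads per library. miR-211-5p had 6.5, 8.5 and 7 reads in stress libraries and 11, 7.5 and 25.5 reads in normal libraries, and miR-204-5p took 99.2% ± 0.093 of their sum in stress samples and 98.6% ± 0.19 in normal samples (SD, n = 3 each), without overlap. Since a single base separates them, this small share is uncertain.

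Related miRNAs gave no calls in these short lists, where 12.7% of all tested miRNAs were called. Of the listed seed relatives 5 were tested and 0 rose or fell. Among precursor neighbours of miR-532, miR-29c and miR-193a, 2 were tested and 0 passed. These were miR-501-3p beside miR-532 (−0.01 ± 0.30 on the log2 scale, edgeR adjusted p = 0.99) and miR-29b-3p beside miR-29c, also a seed relative. The miR-365 features, neighbours of miR-193a, had too few reads to test. So had miR-362-5p beside miR-532, with 8, 6 and 16 reads in stress libraries, against 0, 0 and 2 in normal libraries. The other listed neighbours of miR-532 overlapped between the groups. Other miRNAs reported in sperm of stressed fathers were miR-30a, miR-30c, miR-200b, miR-466, miR-34c and miR-449a, with 29 features here. No feature of miR-466 or miR-449a had enough reads to be tested. Of the 8 tested features, all from miR-30a, miR-30c, miR-200b and miR-34c, 0 passed. The most abundant of these, miR-200b-3p, was at 0.07 ± 0.20 on the log2 scale (edgeR adjusted p = 0.85), and miR-30a-5p at 0.62 ± 0.27 (edgeR adjusted p = 0.14).

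The miRNAs whose pattern over the 6 samples was most like that of each tested member were found as the smallest root mean square difference of mean-centred log2 CPM. They were picked on these same samples, so a change like the member's own, or a steady ratio to it, follows from the choice. For miR-672-5p the nearest were let-7c-5p (0.24 log2 units) and miR-184-3p (0.29), both of which fell (−1.86 ± 0.25 and −1.82 ± 0.30, edgeR adjusted p = 0.0032 and 0.0044). The median difference between miR-672-5p and the other tested miRNAs was 1.16 log2 units. There were 1.27, 1.59 and 1.24 reads of miR-672-5p per 100 reads of let-7c-5p in stress samples, against 1.54, 1.87 and 1.18 in normal samples, with overlap. Compared base by base from the 5′ end, miR-672-5p (23 bases) and let-7c-5p (22 bases) differ by 12 substitutions. Their seeds differ at 1 base, U7A counted from the 5′ end of miR-672-5p, and are shown in capitals below.
miR-672-5p: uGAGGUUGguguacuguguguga
let-7c-5p: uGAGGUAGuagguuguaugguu
For miR-532-5p the nearest were miR-30c-2-3p and miR-92a-3p (0.07 and 0.09 log2 units), for miR-375-3p miR-465b-5p and let-7f-5p (0.15 and 0.18), for miR-204-5p miR-200b-5p and let-7d-5p (0.13 and 0.14), and for miR-204-3p miR-128-3p and miR-1198-5p (0.20 and 0.22). Of these 8, miR-128-3p fell (−1.12 ± 0.30, edgeR adjusted p = 0.031) and the others did not pass.

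Tested miRNAs rich in G had lower fold changes, but the 5 tested members did not follow the order of their G content. miR-204-5p, with the least G, was at −0.44, against −0.08 for miR-532-5p. miR-204-3p and miR-672-5p, the tested members with the most negative fold changes, consist to 47.6% and 43.5% of G, against 31.8% for both miR-375-3p and miR-532-5p, 9.09% for miR-204-5p and a median of 27.3% over all tested miRNAs. Of the 24 tested miRNAs with at least 40% G, 12 were called lower, and their median log2 fold change was −1.27, against 0.05 for the 212 with less G. The limit of 40% was chosen after values were seen, and the part of G content in the change of miR-672-5p was not tested.

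**Figure D4:**
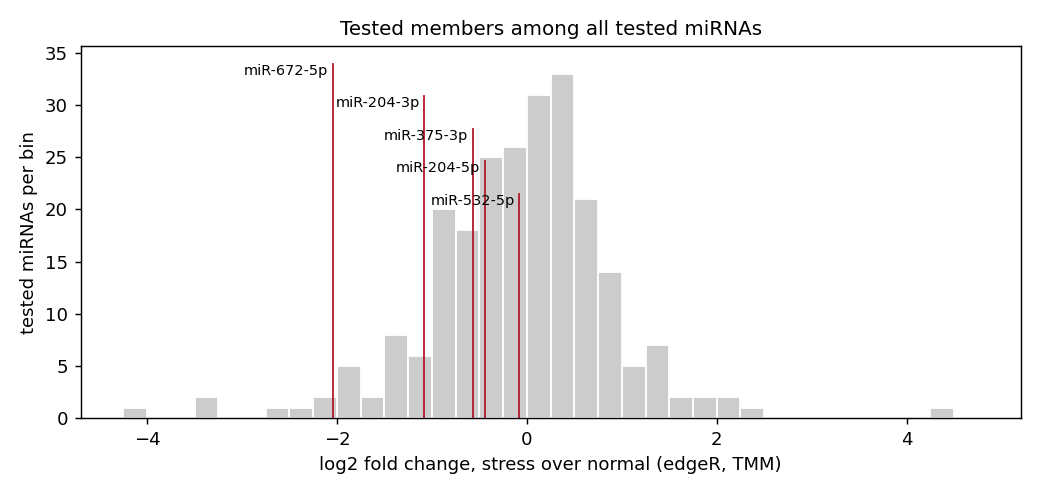
Histogram of the log2 fold changes (stress over normal, edgeR with TMM scaling) of all 236 tested miRNAs in bins of 0.25, with the 5 tested members marked by lines. miR-672-5p, at −2.04, has 2.54% of the tested miRNAs below it, and the other 4 members lie between −1.08 and −0.08.

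The scaling of the libraries set how the members read against 0. TMM factors were 1.24 to 1.38 in stress samples and 0.683 to 0.860 in normal samples. With TMM, 24 miRNAs were called lower and 6 higher. Scaled to the miRNA total, 10 were called lower (4.24%) and 96 higher, and the median of all tested moved to 0.76. Against 0, miR-672-5p then stood at −1.27, miR-204-3p at −0.34, miR-375-3p at 0.20, miR-204-5p at 0.30 and miR-532-5p at 0.70. Relative to that median, all 5 tested members still lay lower, at −2.03, −1.09, −0.56, −0.46 and −0.06 in the same order. Scaled to the total of the miRNA, piRNA and tsRNA reads, part of which is an estimate, 3 miRNAs were called lower (1.19%) and 3 higher, none of them a member.

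**Figure D5:**
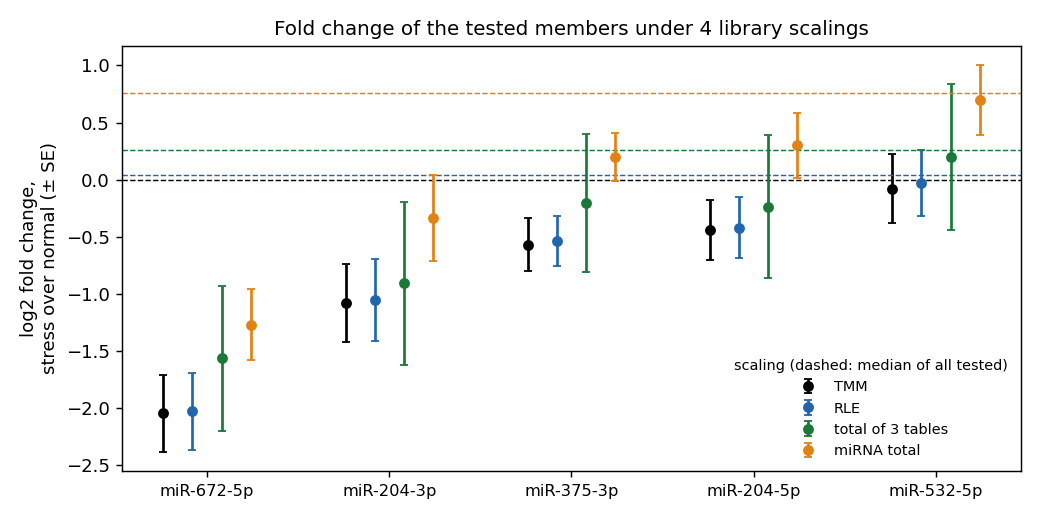
Log2 fold change (stress over normal, ± SE) of the 5 tested members under 4 scalings of the libraries, with dashed lines at the median of all tested miRNAs under each. miR-672-5p lies between −2.04 and −1.27 under all 4, while miR-375-3p, miR-204-5p and miR-532-5p cross 0 with the miRNA total.

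The libraries held 1010203 to 1522849 miRNA reads in stress and 1083237 to 3067208 in normal samples, with normal replicate 3 the deepest. Male germ cell miRNAs such as miR-34c and the miR-465 copies took 0.709% to 0.861% of the miRNA reads in stress samples and 0.675% to 0.883% in normal samples, with 20 to 23 of 23 features detected per library. Of 17 tested, 3 fell, at log2 fold changes of −1.31 ± 0.38 for the feature shared by miR-465a-3p, miR-465b-3p and miR-465c-3p, −1.34 ± 0.36 for miR-743b-5p and −1.40 ± 0.32 for miR-871-3p, against 10.2% lower and 2.54% higher over all tested miRNAs. With the miRNA total these 3 stood at −0.56, −0.59 and −0.61 in that order and did not pass (edgeR adjusted p = 0.11 to 0.24). Epithelial miRNAs took 2.89% to 3.20% in stress samples and 1.24% to 1.75% in normal samples (0 of 7 tested passed), stromal, smooth muscle and endothelial miRNAs 0.931% to 1.09% in stress samples and 0.266% to 0.496% in normal samples (2 of 7 rose, miR-145a-5p at 1.96 ± 0.35 and the feature shared by miR-199a-3p and miR-199b-3p at 1.29 ± 0.30), and leukocyte miRNAs 0.136% to 0.189% in stress samples and 0.0360% to 0.0814% in normal samples (0 of 5 passed). Red blood cell miRNAs took 0.0268% to 0.0818% in stress samples and 0.0341% to 0.102% in normal samples (0 of 3 passed). The liver miRNA miR-122-5p fell (−4.07 ± 0.99, edgeR adjusted p = 0.022), from a list of 1. As given above, 56.8% of all tested miRNAs had higher shares in stress without overlap. Between 8 and 9 of 9 epithelial, 8 and 9 of 9 stromal, 4 and 8 of 8 leukocyte and 3 and 6 of 6 red blood cell features were detected per library. In normal replicate 1 the leukocyte features miR-223-3p, miR-142a-5p, miR-150-3p and miR-155-5p were at 0, while miR-146a-5p had 341 reads, miR-150-5p 47 and miR-223-5p 31. The part of these cell type miRNAs in the member results was not tested.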

How the data were processed

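Small RNA of mouse sperm was measured in 3 stress and 3 normal samples, grouped by the disease-state label, with replicate numbers from the titles. TRIzol extraction and an Illumina TruSeq RNA kit were used, per the labels' protocols, and Bowtie, per the submitters' processing notes. The Bowtie version, genome build, read filters and rule for counting are not given in the sources here. Values of the deposited miRNA table are expected counts (92% of them whole within 0.001, the rest fractions). The deposited piRNA and tsRNA tables hold RPM, scaled by the authors within each table, and served only to estimate library totals: piRNA values were whole multiples of a read, while only 31.2% to 40.6% of low tsRNA values were, so tsRNA depth is uncertain.

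Rounded counts went into edgeR 4.0.16 (R 4.3.3) with TMM scaling, glmQLFit and glmQLFTest, after filterByExpr at a minimum of 10 (two-sided; Benjamini-Hochberg over all 236 tested; threshold 0.05). The SE is the log2 fold change over the square root of F. The filter kept 5 of the 12 members. The fit was checked on simulated counts with the same spread for all miRNAs and no built-in shift in scaling between the groups. That check therefore does not bear on the choice of scaling. DESeq2 1.42.0, other scalings and filters, the replicate number as a block, and leaving out each sample were alternatives. Arm shares used an exact permutation test on hairpins with at least 10 reads per sample. Hairpin coordinates are from RefSeq (GRCm38.p6) and host genes from GENCODE M21, the same build. No sample copied another (chi-square per degree of freedom at least 38.5 over all 15 pairs). Normal replicate 1 stood apart from normal replicates 2 and 3 (473 and 553). Those 2 were nearer to each other (80.4) and to the stress samples (282 to 351). Such values also grow with the depth of the libraries. The members, the lists of relatives and cell type markers, and the tests were chosen with earlier results of these data known. The text names all members, the list features that passed and the most abundant feature of each list of related miRNAs. It also names the 2 most similar miRNAs of each tested member. The ratios, the reads of miR-362-5p and the G content limit were added after values were seen.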

Additional observations from a re-analysis of the deposited data

How the results depend on the processing

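Of the 5 tested members, miR-672-5p kept its direction under every alternative run and was called under all but the scaling to the total of the 3 tables, where 0 members were called. Its log2 fold change was −2.30 to −1.75 with 1 sample left out. No other tested member was called under any alternative, and miR-204-3p, which could not be tested at a minimum count of 50, stayed negative. Scaled to the miRNA total, miR-204-5p, miR-375-3p and miR-532-5p turned to 0.30, 0.20 and 0.70. miR-532-5p also turned to 0.20 with the total of the 3 tables, and with 1 sample left out it lay between −0.31 and 0.20. The 30 calls over all miRNAs became 106 with the miRNA total, 6 with the total of the 3 tables, 47 in DESeq2 and 49 with no filter. They numbered 17 without stress replicate 3 and 55 without normal replicate 3, the extremes of leaving out 1 sample. Same-numbered samples did not deviate together in every pair (correlations 0.111, −0.207 and 0.121), so the numbers were not taken as pairs; with the replicate block 28 miRNAs were called and miR-672-5p stood at −1.96 (edgeR adjusted p = 0.0091). The causes were not tested. The 7 untested members had 0 to 49 reads per library, which limits the precision of their values.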
